A study of Mus musculus with 3 samples.

Results

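The 6 genes described here, Acta2, Tagln, Myl9, Cnn1, Tpm2 and Mylk, encode the contractile apparatus of smooth muscle, and they were taken by symbol from the 51923 gene rows of a single-cell count table of mouse embryo mesoderm. Of these rows, 35403 had at least 1 UMI (unique molecular identifier, 1 counted RNA molecule), and all 6 genes were among them. Acta2 (smooth muscle alpha-actin) forms thin filaments, Tpm2 (beta-tropomyosin), Cnn1 (calponin) and Tagln (transgelin, SM22) bind them, Myl9 is the regulatory light chain of smooth muscle and non-muscle myosin, and Mylk is the kinase that phosphorylates this light chain and so starts contraction. Most of these genes are classical targets of serum response factor (SRF), which binds an A/T-rich element between CC and GG called the CArG box and acts in muscle with the coactivator myocardin. Embryonic cardiomyocytes are known to carry several of them for a time before the cardiac isoforms take over, so in the early embryo they mark heart muscle as well as smooth muscle.

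The study asked how Wnt secretion by the heart fields affects second heart field cell fate, as its title states. All embryos were on a C57BL/6 background and carried Mesp1-Cre, which is active in early mesoderm, and the Ai9 reporter, which turns on tdTomato after recombination. Controls had 1 floxed copy of Wls (Wls fl/+) and mutants 2 (Wls fl/fl). Wls encodes the protein that carries Wnt ligands to the cell surface. The controls therefore also lost 1 Wls copy in the recombined cells, only the Mesp1-Cre lineage lost Wls, and only tdTomato-positive sorted cells were counted, so Wnt-secreting cells outside this lineage were neither altered nor seen. Embryos were staged at E8.0, E8.5 and E9.5, tagged with lipid barcodes (MULTI-seq), pooled, and captured on the 10x Chromium v3 platform in 3 sequencing runs.

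The table held 14777 cells and 331587989 UMIs, with a median of 21739 UMIs per cell. A barcode sample is here all cells that share a run, a lipid barcode, a stage and a genotype, and there were 12 control and 10 mutant ones, of 6 to 2508 cells. They comprised 3 controls and 3 mutants at E8.0, 2 controls (Bar2 and Bar3) and 1 mutant (Bar1) at E8.5, 6 and 6 at E9.5, and 1 control of 28 cells labelled E7.5, a stage outside the stated design. Whether a barcode marked 1 embryo or several is not given in the sources used here, so p-values measure the spread between these samples, which may be technical. Stage and run were partly tied: E8.0 was sequenced in run 1 alone and E8.5 in run 2 alone, whereas E9.5 was in all 3 runs. At E8.0, sex and genotype moved together: 80.5% to 82.4% of cells in mutant samples were called male, against 1.63%, 1.63% and 42.6% in controls. Sex was not balanced at E9.5 either. The male share there was 78.1% to 82.5% in the mutants Bar19, Bar21 and Bar5, and 1.79% to 2.98% in Bar20, Bar8 and Bar10. In the E9.5 controls it was 1.15% to 1.89% in Bar22, Bar23, Bar4 and Bar9, 61.6% in Bar7 and 100% in Bar6. In 23 cases a cell barcode sequence occurred in more than 1 run. Wls itself was 48.0 ± 10.0 CPM (UMIs of the gene scaled to a total of 1000000; SD, n = 10) in controls and 10.1 ± 3.18 (n = 10) in mutants, without overlap.

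The levels were read in cell gates. Tnnt2-positive cells had at least 5 UMIs of Tnnt2 (cardiac troponin T), which gave 1377 cells (9.32%). Tcf15-positive cells had at least 1 UMI of Tcf15, a transcription factor of paraxial mesoderm, and fewer than 5 of Tnnt2, which gave 3322 cells (22.5%). Among the 1377 Tnnt2-positive cells, 89 passed both thresholds and were kept in the Tnnt2 gate. Besides Tnnt2 and Tcf15, which define the gates, the other 9 cardiomyocyte markers were higher in the Tnnt2 gate and the other 7 paraxial mesoderm markers in the Tcf15 gate (edgeR, adjusted p under 0.05). The list used for mature smooth muscle held 5 genes, 1 of them the member Cnn1, and they were not of 1 level. Myh11, the smooth muscle myosin heavy chain, had 190 UMIs in all cells together, 4.30 CPM in the Tnnt2 gate and 0.117 CPM in the Tcf15 gate. The others stood higher in the Tnnt2 gate, with 377 CPM of Des, 193 of Cnn1, 123 of Myocd and 18.7 of Smtn. By the cardiomyocyte markers this gate held heart muscle, so these levels do not make its cells mature smooth muscle. The CPM values of this list pool the cells of all samples, so that of Cnn1 differs from the median over samples given below.

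Promoter windows were read from RefSeq (GRCm38.p6), where 5 of the 6 genes had one. Tagln is only named here. The 250 bases before the start site are shown for the genes whose levels stood furthest above the other cells in the Tnnt2 gate (Acta2, Cnn1) and that differed most between genotypes there at E8.0 (Myl9). Capitals mark CArG-like boxes, meaning a CArG box or 1 in which 1 of the 6 central A or T positions is C or G.
Acta2, chr19:34255374-34255623, minus strand: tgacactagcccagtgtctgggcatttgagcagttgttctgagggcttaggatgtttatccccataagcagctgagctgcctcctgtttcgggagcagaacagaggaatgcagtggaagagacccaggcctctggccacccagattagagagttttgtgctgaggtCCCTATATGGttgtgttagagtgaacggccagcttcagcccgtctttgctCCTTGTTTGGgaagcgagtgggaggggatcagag
Myl9, chr2:156775214-156775463, plus strand: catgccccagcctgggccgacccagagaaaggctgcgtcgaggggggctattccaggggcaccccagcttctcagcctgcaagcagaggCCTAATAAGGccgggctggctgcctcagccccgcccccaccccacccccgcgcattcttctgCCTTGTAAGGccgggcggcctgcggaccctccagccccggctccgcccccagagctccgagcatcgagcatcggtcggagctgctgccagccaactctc
Cnn1, chr9:22099003-22099252, plus strand: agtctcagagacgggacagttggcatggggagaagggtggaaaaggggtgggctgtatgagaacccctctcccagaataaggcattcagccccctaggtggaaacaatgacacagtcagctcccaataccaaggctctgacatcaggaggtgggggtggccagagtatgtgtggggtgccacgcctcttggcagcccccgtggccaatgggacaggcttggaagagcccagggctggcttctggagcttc

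Acta2 and Myl9 each held a pair of CArG-like boxes, and Cnn1, Tpm2 and Mylk held none in the full window (250 bases before to 50 after the start, both strands). Only the box of Myl9 that begins 161 bases before the start, cctaataagg, was a complete CArG box. Complete boxes occurred in 1.63% of all 32851 windows of this length and CArG-like boxes, which include the complete ones, in 9.98%. The MCAT element CATTCC, which TEAD factors bind, was in the windows of Acta2 and Mylk and in 14.7% of all windows. The GC box GGGCGG was in those of Myl9 and Tpm2 and in 35.7% of all. The exact strings TATAAA for the TATA box (13.6% of all windows) and CTTTGA for the TCF/LEF element, read by the Wnt pathway (16% of all), were in none of the 5. Variants of the TATA box were not searched. The 50 bases of Acta2 after the start hold the stretch tatataa, so a TATA box is not excluded there. Only Tagln and Cnn1 share a chromosome (GENCODE M21, GRCm38): Acta2 at chr19:34241090-34255590 on the minus strand, Tagln at chr9:45929619-45936058 on the minus strand, Myl9 at chr2:156775420-156781658 on the plus strand, Cnn1 at chr9:22099216-22109630 on the plus strand, Tpm2 at chr4:43514711-43523765 on the minus strand and Mylk at chr16:34745210-35002420 on the plus strand. The RefSeq starts used for all 5 genes with a window lay inside these intervals, that of Mylk furthest inside.

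Heart muscle cells held most of the RNA of 4 of the 6 genes. Of the 157710 Acta2 UMIs, 78.4% came from Tnnt2-positive cells, and the share was 88.6% of 6757 for Cnn1, 65.0% of 35607 for Myl9 and 59.9% of 18352 for Tagln. Tpm2 and Mylk were spread over the mesoderm: 21.3% of the 23829 Tpm2 UMIs and 13.5% of the 1127 Mylk UMIs came from the Tnnt2 gate, against 23.6% and 22.7% from the Tcf15 gate. A UMI of Tpm2 was found in 55.9% of all cells, of Acta2 in 43.8%, of Myl9 in 36.8%, of Tagln in 21.7%, of Cnn1 in 10.3% and of Mylk in 6.26%. The counts were concentrated in few cells, least so for Tpm2: the 1% of cells with the most UMIs of a gene held 36.5% of Cnn1 and 9.74% of Tpm2.

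Outside the Tnnt2 gate, the mean levels of Acta2 and Tagln over all stages were highest in cells with Tbx4, Foxf1 or Wt1. The classes were cells in neither gate, not globin-high, with at least 2 UMIs of Tbx4, Wt1, Foxf1, Ebf1, Isl1 or Cdh5, in samples with at least 20 such cells. Acta2 was 745 ± 947 CPM (SD, n = 5 samples) in Tbx4-positive cells, 328 ± 199 (n = 16) in Foxf1-positive, 299 ± 187 (n = 7) in Wt1-positive, 111 ± 114 (n = 15) in Isl1-positive, 78.6 ± 59.2 (n = 17) in Ebf1-positive, 41.1 ± 20.7 (n = 16) in Tcf15-positive, 18.7 ± 10.7 (n = 4) in Cdh5-positive and 12.8 ± 6.05 (n = 15) in globin-high cells. The SD of the Tbx4 class exceeded its mean, because the samples ran from 29.6 CPM in the E8.0 mutant Bar28 to 2169 in the E8.5 control Bar3, so its place above the Foxf1 and Wt1 classes is within the spread. Tagln was 109 ± 177 CPM in Tbx4-positive, 97.5 ± 60.0 in Wt1-positive, 55.2 ± 49.0 in Foxf1-positive and 1.52 ± 1.24 in globin-high cells. The classes held the stages in different shares, so these orders mix stages: the Wt1 class had no E8.0 sample, and at E8.0 Tagln was 5.01 ± 3.41 CPM (n = 3) in Tbx4-positive cells, below the 17.7 ± 5.84 (n = 6) of Foxf1-positive cells. The first place of the Tbx4 class rested on Bar3 and Bar22 alone. Mylk had another order. It was 8.99 ± 5.25 CPM (n = 4) in Cdh5-positive cells (Cdh5 encodes VE-cadherin of endothelium), 6.05 ± 2.73 in Wt1-positive and 5.02 ± 1.72 (n = 18) in Tnnt2-positive cells, and these did not differ beyond their spread. Tpm2 ran from 172 ± 35.2 CPM in the Tnnt2 gate over 123 ± 106 in Tbx4-positive, 102 ± 33.5 in Ebf1-positive and 92.3 ± 17.5 in Wt1-positive cells to 60.5 ± 18.9 in Foxf1-positive cells, and was 18.2 ± 2.51 in Cdh5-positive and 3.44 ± 1.93 in globin-high cells.

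**Figure D1:**
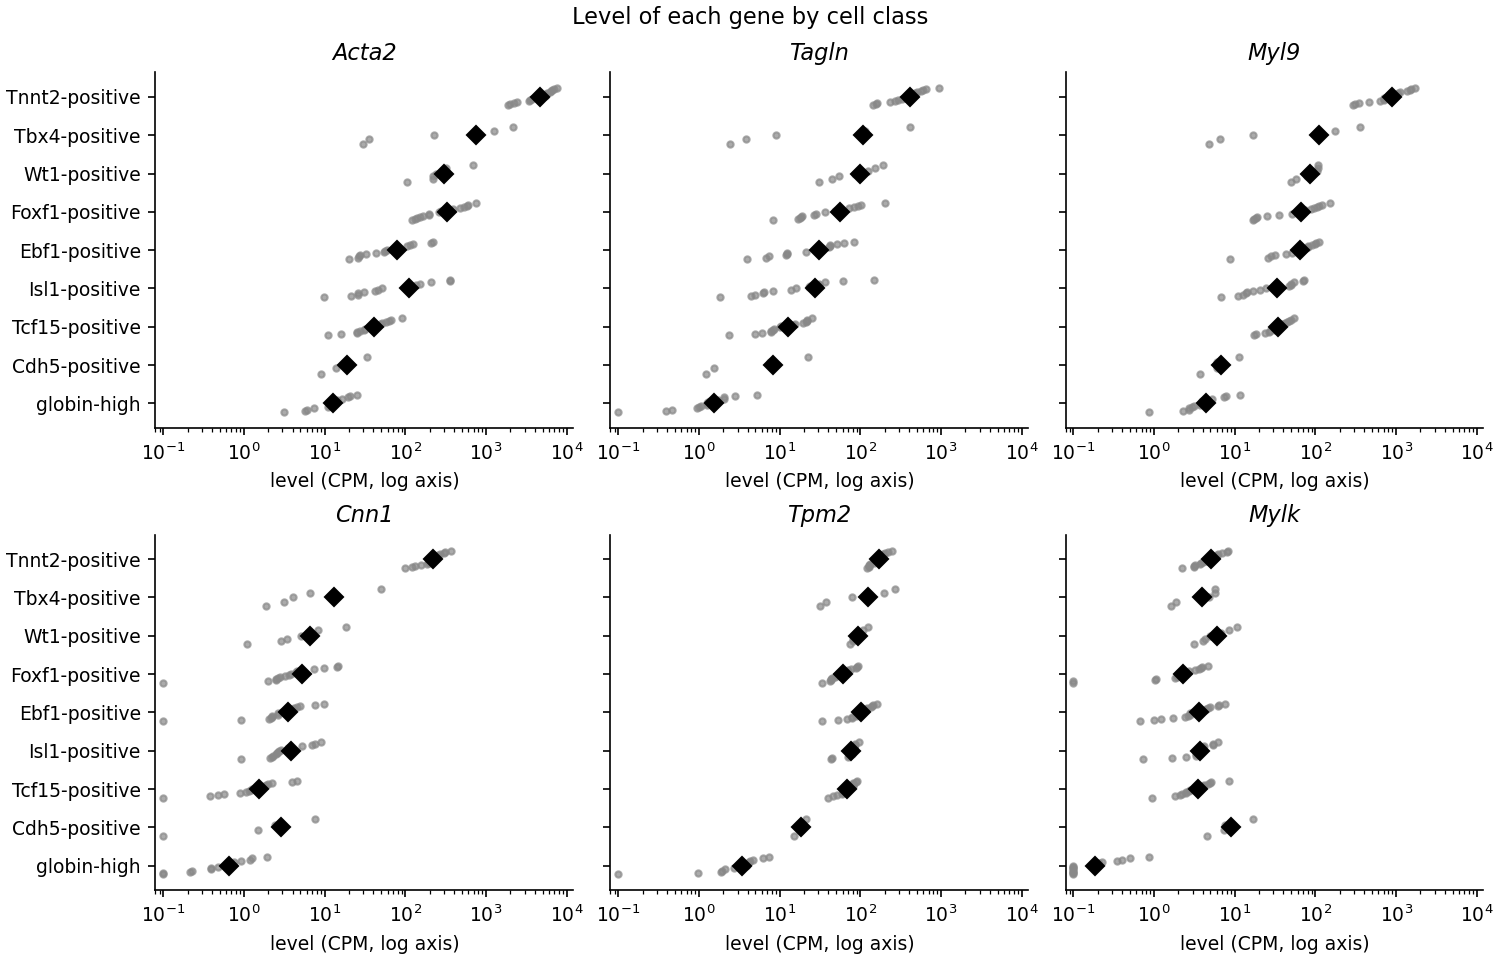
Level of each gene in 9 cell classes, in CPM on a log axis. Grey points are barcode samples with at least 20 cells of the class (a sample at 0 is drawn at 0.1) and black diamonds are their means. Acta2, Tagln, Myl9 and Cnn1 stood highest in the Tnnt2-positive class, while the classes lay close together for Mylk apart from the low globin-high class.

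All 6 genes were higher in Tnnt2-positive than in Tcf15-positive cells of the same barcode samples, by very different amounts. In the Tnnt2 gate Acta2 ran from 1843 to 7590 CPM with a median of 5026 (18 samples), and in the Tcf15 gate from 10.9 to 90.1 with a median of 37.1 (16 samples). Cnn1 ran from 98.6 to 367 CPM with a median of 205 in the Tnnt2 gate, and from 0 to 4.51 with a median of 1.24 in the Tcf15 gate. For these genes, and for Tagln, Myl9 and Tpm2, the lowest Tnnt2-positive sample lay above the highest Tcf15-positive one, while Mylk overlapped. The share of all genes that separated in this way was not counted, so the separation is given as a description only. The gates of 16 samples were compared as pairs, and the log2 difference was 7.04 (SE 0.13) for Cnn1, 6.78 (SE 0.19) for Acta2, 4.89 (SE 0.16) for Tagln, 4.47 (SE 0.10) for Myl9, 1.36 (SE 0.05) for Tpm2 and 0.63 (SE 0.18) for Mylk. Each passed the edgeR quasi-likelihood test with Benjamini-Hochberg adjustment over all genes, Mylk with the highest adjusted p (0.00396). Of all genes tested 60.8% passed, so the count of 6 in itself says little. The median log2 difference was 4.68 for the 6 genes and -0.02 for all genes tested. Mylk had few UMIs and its call was lost with a Tnnt2 threshold of 20 UMIs (0.36, SE 0.25, adjusted p = 0.22).

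The rest of the smooth muscle list moved with them. Of 16 other smooth muscle genes, 15 were higher in the Tnnt2 gate and none lower (median 2.15), with log2 differences of 5.28 for Lmod1 (leiomodin, an actin nucleator), 5.22 for Synpo2, 4.91 for Kcnmb1 (a subunit of the calcium-activated potassium channel) and 4.75 for Myh11. All 12 cardiac counterparts were higher, with a median of 7.88, well above that of the 6 genes. Among 15 regulators of SRF and myocardin, 7 were higher, led by Myocd (myocardin, 5.51) and Tgfb2 (2.38), and 4 were lower, led by Elk3 (-1.95), an SRF partner, and Tgfbr2 (-1.29), a TGF-beta receptor. That is 11 of 15 called, split both ways, in a fit where 60.8% of all genes were. The non-muscle counterparts also leaned to the Tnnt2 gate, with 12 of 15 higher, 1 lower and a median of 0.46. Within that list Myl6 (1.64) and Cnn2 (1.61) were higher and Tagln2 (-0.46), the non-muscle relative of Tagln, was lower. Of the 7 immediate early genes, which mark handling of cells, 4 were higher in the Tnnt2 gate, Fos (2.20), Fosb (1.52), Atf3 (0.57) and Jun (0.37), and their part in the values was not tested.

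Single cells carried the genes in combination in the Tnnt2 gate and mostly singly or not at all elsewhere. Cells were thinned to 5000 UMIs each, which left out 365 control and 82 mutant cells below that depth. A UMI of Acta2 was then found in 89.0% of Tnnt2-positive cells, 11.7% of Tcf15-positive and 4.08% of globin-high cells, a class taken as background because red cells should lack it (means over samples). Without thinning the values were 95.2%, 34.6% and 27.2%, at median depths of 22091, 22224 and 27335 UMIs. For Cnn1 the thinned shares were 52.8%, 0.755% and 0.215%, for Myl9 74.2%, 12.9% and 1.91%, for Tagln 60.1%, 4.98% and 0.415%, for Tpm2 49.1%, 28.9% and 1.38%, and for Mylk 2.30%, 1.76% and 0.0375%. Thus Tpm2 was the member with the highest share in the Tcf15 gate. Of the thinned Tnnt2-positive cells 27.7% held UMIs of 4 of the genes, 21.9% of 5 and 6.21% of none, while 54.1% of the Tcf15-positive cells held none.

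From E8.0 to E9.5 the levels of 5 of the 6 genes rose within the Tnnt2 gate. Acta2 was 1843, 2204 and 1992 CPM in the E8.0 controls Bar24, Bar26 and Bar29, and 4572, 5294, 4759, 7590 and 6417 in the E9.5 controls Bar22, Bar23, Bar4, Bar7 and Bar9. It was 2390, 3522 and 3438 CPM in the E8.0 mutants Bar25, Bar27 and Bar28, and 5609, 6209, 5540, 6868 and 6534 in the E9.5 mutants Bar19, Bar20, Bar21, Bar8 and Bar10. Within each genotype every E9.5 sample lay above every E8.0 sample. The share of all genes that separated by stage was not counted, so this is a description only. In a fit over 18 samples with genotype as a covariate, the log2 change was 1.38 (SE 0.18) for Tagln, 1.37 (SE 0.24) for Myl9, 1.32 (SE 0.14) for Acta2, 0.83 (SE 0.16) for Cnn1 and 0.56 (SE 0.10) for Tpm2 (edgeR, adjusted p between 6.82e-07 and 0.000434). Of all genes tested 26% passed. Mylk was -0.31 (SE 0.28, adjusted p = 0.457). The median was 1.08 for the 6 genes and 0.00 for all genes.

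These rises were kept inside run 1, the run that held both stages, with log2 changes of 1.11 for Acta2 and 0.57 for Cnn1, and in each fit without 1 sample. With a Tnnt2 threshold of 1 UMI, Cnn1 no longer passed (0.44, adjusted p = 0.358). The heart muscle program as a whole was higher at E9.5: all 12 cardiac counterparts rose, with a median of 1.34, and the summed level of the 10 cardiomyocyte markers went from 15481 to 26269 CPM over the E8.0 samples to 28328 to 57531 CPM over those at E9.5. Tnnt2, which sets the gate, is 1 of these 10 markers but not a cardiac counterpart. In the same gate the summed allantois and lateral plate markers lay between 148 and 482 CPM at E8.0 and between 38.1 and 138 at E9.5. The epithelial markers lay between 374 and 621 CPM and between 201 and 582, and the proepicardium markers between 19.6 and 46.0 and between 27.7 and 275. The immediate early genes Atf3 (1.91) and Jun (0.82) were higher at E9.5, 2 of 7. The part of these shifts in the rise of the 6 genes was not tested. Other smooth muscle genes went both ways, 7 of 16 up, led by Synpo2 (1.61) and Des (desmin, 1.57), and 3 down, led by Actg2 (-1.59), the smooth muscle gamma-actin. Non-muscle counterparts were split as well, with Myl6 up (0.81) and Tpm4 (-0.75) and Actb (-0.56) down among 3 of 15 in each direction. The ligand Tgfb3 (1.65) and Elk3 (1.01) were the 2 of 14 tested regulators that rose.

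**Figure D2:**
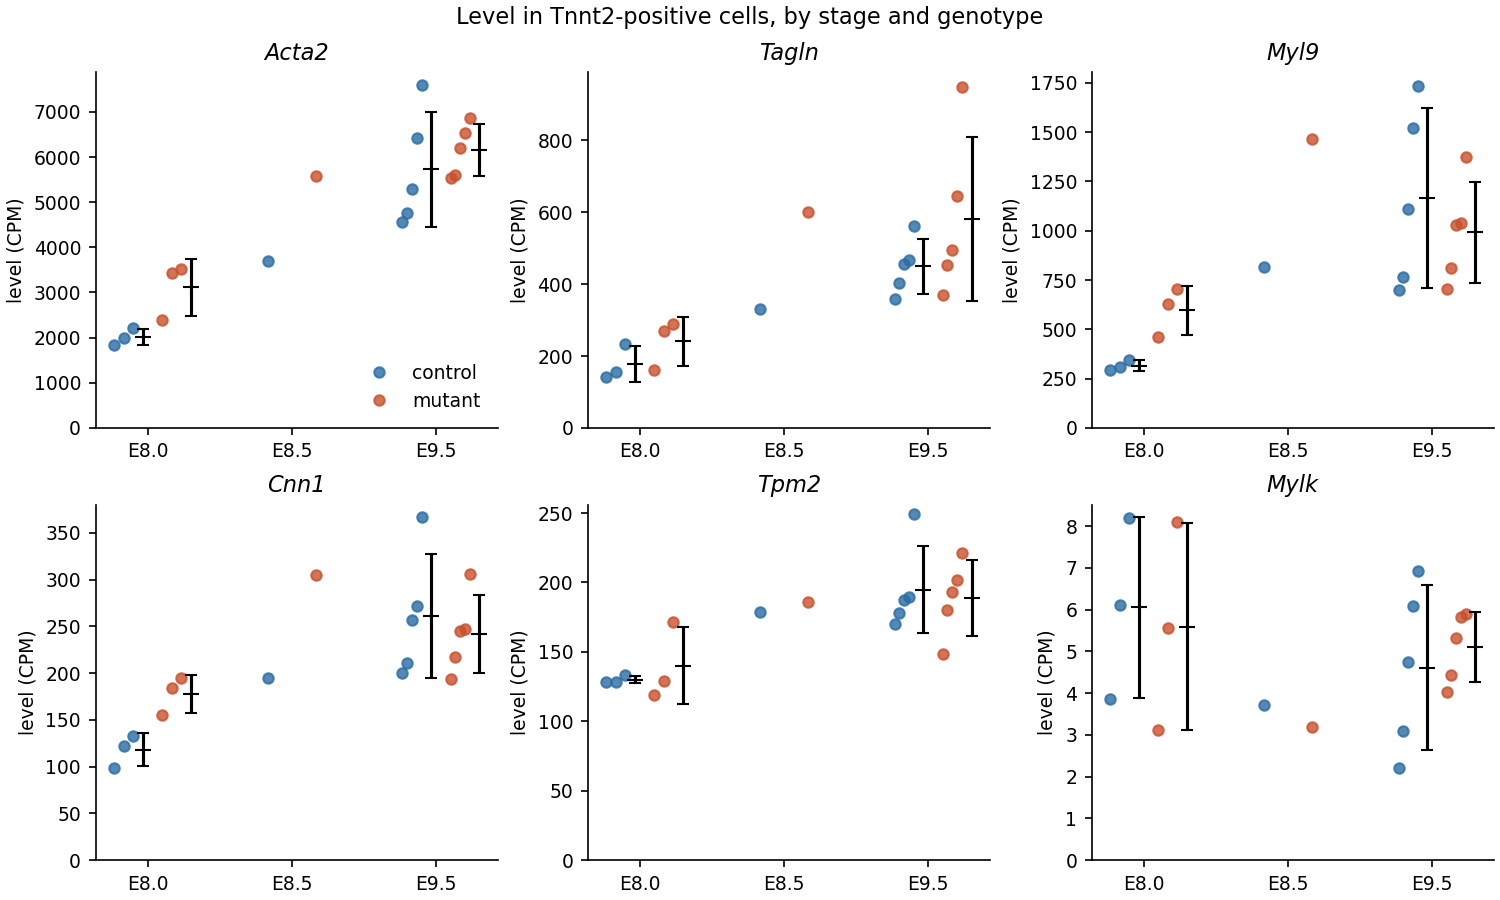
Level of each gene in Tnnt2-positive cells, in CPM, by stage. Points are barcode samples, control in blue and mutant in orange, and black bars are mean ± SD where a group had 3 or more. At E8.0 the 3 mutants lie above the 3 controls for Acta2, Myl9 and Cnn1, and at E9.5 the genotypes overlap in every panel.

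In Tcf15-positive cells the stage change was found in 3 genes. Myl9 was 17.4, 23.9 and 18.1 CPM in the E8.0 controls and 36.3, 32.0, 32.3 and 54.4 in the E9.5 controls Bar22, Bar23, Bar4 and Bar9, with no overlap. In the mutants the stages overlapped, with 41.6, 27.0 and 26.7 CPM in Bar25, Bar27 and Bar28 at E8.0 and 38.4, 35.3, 49.6 and 31.6 in Bar19, Bar20, Bar21 and Bar10 at E9.5. How many of all genes separated by stage as Myl9 did in the controls was not counted. The log2 change of Myl9 was 0.67 (SE 0.16, edgeR, adjusted p = 0.0095). Tpm2 rose by 0.48 (SE 0.11, adjusted p = 0.00587) and Tagln by 1.10 (SE 0.33, adjusted p = 0.0300), in a fit where 14.7% of all genes passed. The Tagln call was lost without any of Bar26, Bar29, Bar27, Bar28, Bar22, Bar19, Bar20 or Bar21, with values from 0.99 to 1.22 and an adjusted p of up to 0.0687. Acta2 (0.38, SE 0.29), Cnn1 (-0.05, SE 0.48) and Mylk (0.48, SE 0.28) did not pass. With a Tcf15 threshold of 2 UMIs the Tpm2 call was kept (0.44, adjusted p = 0.00626), while Myl9 (0.37, adjusted p = 0.247) and Tagln (0.67, adjusted p = 0.308) no longer passed. The samples Bar18, Bar2, Bar6 and Bar5 had fewer than 20 cells in each gate, and Bar7 and Bar8 in the Tcf15 gate, and were left out of the gate fits. The summed erythroid markers in the Tcf15 gate lay between 1511 and 10603 CPM at E8.0 and between 5751 and 40201 at E9.5. The allantois and lateral plate markers lay between 28.1 and 177 CPM and between 17.0 and 64.4, and the second heart field markers between 82.0 and 137 and between 28.7 and 84.1. Jun, 1 of the 7 immediate early genes, was higher at E9.5 (0.98). The part of these in the stage values was not tested.

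Summed over all cells, 2 of the 6 genes were higher at E9.5, and the share of heart cells moved with the stage. Tnnt2-positive cells made up 14.9% ± 4.04 (SD, n = 3) of E8.0 control and 17.8% ± 2.92 (n = 3) of E8.0 mutant cells, against 8.18% ± 3.50 (n = 5) and 9.34% ± 3.93 (n = 6) at E9.5. In such sums a smaller share of a cell class and less RNA per cell cannot be told apart, so the cells outside the gate were also fitted alone, a choice made after seeing the data. Over all cells, Tagln (0.81, SE 0.19, edgeR, adjusted p = 0.00471) and Tpm2 (0.51, SE 0.18, adjusted p = 0.0450) were higher at E9.5, with 19.5% of all genes passing. The Tpm2 call was lost in 14 of the 21 fits without 1 sample (Bar24, Bar26, Bar25, Bar27, Bar28, Bar1, Bar22, Bar23, Bar7, Bar9, Bar21, Bar5, Bar8 or Bar10), with values from 0.46 to 0.58. Without the Tnnt2-positive cells, 5 of the 6 passed and 20.7% of all genes did: Tagln (1.73), Myl9 (1.40), Acta2 (1.07), Cnn1 (0.86) and Tpm2 (0.70). Median depth per sample was 25075 to 29940 UMIs at E8.0 and 9759.5 to 24431 at E9.5, while the gate is a fixed count of Tnnt2 UMIs. The part of depth in these values and in the shares of Tnnt2-positive cells was not tested. The direction of Cnn1 over all cells turned between fits, from 0.09 (SE 0.33) over all samples to -0.63 in run 1 alone (adjusted p = 0.0184). At E8.5 against E8.0, Tagln was higher (1.01, SE 0.26, adjusted p = 0.0137), with 15.4% of all genes passing. Stage and run coincided there, and the call was lost without Bar3 or Bar1 (lowest value 0.71) and with a term for run.

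Between the genotypes, 3 of the 6 genes separated in Tnnt2-positive cells at E8.0, though none passed the test over all genes. Acta2 was 2013 ± 181 CPM (SD, n = 3) in controls and 3116 ± 631 (n = 3) in mutants, from the values given above, and the groups did not overlap. Myl9 was 311, 344 and 292 CPM in the controls Bar24, Bar26 and Bar29, and 460, 703 and 628 in the mutants Bar25, Bar27 and Bar28. Cnn1 was 122, 98.6 and 133 CPM in the controls and 184, 155 and 195 in the mutants. In each of these 3 genes every mutant lay above every control, as did 6.69% of all genes tested. Tagln overlapped, with 142, 234 and 154 CPM against 162, 289 and 271, and so did Tpm2 (128 to 133 against 119 to 172 CPM) and Mylk (3.86 to 8.19 against 3.13 to 8.09 CPM).

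In that E8.0 comparison 0.0459% of all genes passed. The log2 differences were 0.91 (SE 0.14, edgeR, adjusted p = 0.0505) for Myl9, 0.62 (SE 0.12, adjusted p = 0.174) for Acta2 and 0.58 (SE 0.14, adjusted p = 0.208) for Cnn1, and 3 of the 6 had an unadjusted p under 0.05, as did 6.87% of all genes. DESeq2 called all 3, with 1.11% of all genes. Without the 89 cells past both thresholds, Myl9 passed in edgeR (0.92, adjusted p = 0.0350). Of the 6 fits without 1 sample, edgeR called Myl9 and Acta2 only in 1, that without the mutant Bar25. Over these fits 0.0354% to 0.195% of all genes were called. Bar25 was the lowest mutant for both genes, so leaving it out widens the difference and the call adds no support. The values over these fits ran from 0.78 to 1.07 for Myl9 and from 0.52 to 0.78 for Acta2. The mutant samples were also higher in other heart muscle genes. The 12 cardiac counterparts, which do not include Tnnt2, had a median log2 difference of 0.73, with 12 of 12 at an unadjusted p under 0.05 and none called. The cardiomyocyte markers summed to 20603 to 26269 CPM against 15481 to 16421, a sum that includes Tnnt2, which sets the gate. The part of these, and of the difference in male share, in the values of the 6 genes was not tested at E8.0.

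At E9.5 the genotypes overlapped for all 6 genes in the Tnnt2 gate. With 5 against 5 samples, every mutant lay above every control for 1.92% of all genes and below for 1.95%. Overlap was thus the rule for all genes there, and the overlap of the 6 does not show that the E8.0 differences faded. Acta2 was 5726 ± 1266 CPM (SD, n = 5) in controls and 6152 ± 577 (n = 5) in mutants, and Myl9 1166 ± 455 and 992 ± 257. Tagln was 468, 403, 560, 457 and 357 CPM in the controls Bar22, Bar23, Bar4, Bar7 and Bar9, and 644, 452, 948, 496 and 369 in the mutants Bar19, Bar20, Bar21, Bar8 and Bar10. The sample Bar21 stood apart as the highest. No gene of the 6 passed (edgeR, 3.2% of all genes did, and DESeq2 called 0 of the 6 and 4.14% of all genes): Tagln was 0.47 (SE 0.19, adjusted p = 0.203), Acta2 0.14 (SE 0.09, adjusted p = 0.481) and Myl9 -0.03 (SE 0.15), and 1 of the 5 tested had an unadjusted p under 0.05, a share near the 17.8% of all genes. Mylk was too low to be tested there.

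The genotype effect at E9.5 minus that at E8.0 was -0.96 (SE 0.24, edgeR, adjusted p = 0.111) for Myl9, -0.54 (SE 0.20, adjusted p = 0.350) for Cnn1 and -0.50 (SE 0.16, adjusted p = 0.267) for Acta2. It did not pass for any of the 6, though 3 had an unadjusted p under 0.05 (9.88% of all genes did) and DESeq2 called Myl9 (adjusted p = 0.0370) with 1.91% of all genes. Of all genes 0.21% passed in edgeR. A difference of the effect between these stages is therefore not established by this test. At E8.5, with 1 sample each and no test within the gate, the control Bar3 and the mutant Bar1 had 3704 and 5574 CPM of Acta2, 817 and 1464 of Myl9, 331 and 600 of Tagln, 194 and 305 of Cnn1, 178 and 186 of Tpm2 and 3.71 and 3.20 of Mylk. The cardiomyocyte markers, Tnnt2 included, summed to 21689 and 40205 CPM in these samples, and the proepicardium markers to 182 and 58.7. The part of these in the values was not tested.

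In 1 fit over all stages (18 samples, stages as blocks and a term for each run), Acta2 was called in the Tnnt2 gate, with a log2 difference of 0.37 (SE 0.09, edgeR, adjusted p = 0.0375), where 2.37% of all genes were. Tagln was 0.51 (SE 0.15, adjusted p = 0.0731), Myl9 0.42 (SE 0.15, adjusted p = 0.142), Cnn1 0.33 (SE 0.11, adjusted p = 0.112), Tpm2 0.08 (SE 0.09) and Mylk -0.00 (SE 0.27), with a median of 0.35 against 0.01 for all genes. The Acta2 call was not stable. Adjusted for the percentage of male-called cells it was 0.29 (adjusted p = 0.275), and with a Tnnt2 threshold of 20 UMIs 0.32 (adjusted p = 0.209). It was lost without any of Bar24, Bar29, Bar27, Bar28, Bar3, Bar1, Bar22, Bar23, Bar9, Bar19 or Bar20, with values from 0.32 to 0.42 and an adjusted p of up to 0.106. The cardiac counterparts were higher in the same fit, 6 of 12 called with a median of 0.45 and Acta1 (skeletal alpha-actin, 0.77) and Myh7 (0.73) in front. The 4 second heart field markers in this gate summed to 145 to 183 CPM in E9.5 controls and 73.4 to 130 in E9.5 mutants, 196 and 140 in the E8.5 samples, and 102 to 184 and 107 to 185 at E8.0, and their part in the values was not tested. None of the 16 other smooth muscle genes, the 14 tested regulators or the 15 non-muscle counterparts passed.

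In Tcf15-positive cells no gene of the 6 was called for genotype. Acta2 was 24.9, 25.0 and 30.6 CPM in the E8.0 controls Bar24, Bar26 and Bar29, and 65.6, 38.6 and 41.0 in the mutants Bar25, Bar27 and Bar28. Every mutant lay above every control for Acta2, Myl9 and Mylk, as for 7.78% of all genes at that stage. The E8.0 log2 difference of Acta2 was 0.77 (SE 0.20, edgeR, adjusted p = 0.822), with 0.0416% of all genes called, and it turned to -0.54 with a Tcf15 threshold of 2 UMIs. Cnn1 did not pass the filter on low counts at E8.0, which left 5 of the 6. At E9.5, 16.1% of all genes were called and none of the 6, with Acta2 at 0.45 (SE 0.31, adjusted p = 0.362, called only without Bar21, at 0.77) and Tagln at 0.24 (SE 0.17, adjusted p = 0.377). Cnn1 had the opposite order there. All 4 mutants, at 0 to 1.22 CPM, lay below the 4 controls, at 1.27 to 3.89 CPM, as for 7.59% of genes, and its fit gave -0.70 (SE 0.56, adjusted p = 0.440).

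Over all stages in the Tcf15 gate 10.4% of genes were called, and the 6 genes lay between -0.64 (Cnn1, SE 0.46) and 0.35 (Acta2, SE 0.25), with 0 at an unadjusted p under 0.05 (24.5% of all genes) and 0 called by DESeq2, which called 14.2% of all genes. With a Tcf15 threshold of 2 UMIs the Acta2 value turned to -0.21. The stage difference of the effect gave 0 calls among the 6 and 1.14% of all genes. Itga1 (an integrin subunit, 0.87), Vcl (vinculin, 0.38) and Flna (filamin A, 0.19) were higher in mutants among 12 tested genes of the smooth muscle list. Endothelial markers moved with genotype in this gate: 5 of 5 were higher, with a summed level of 60.8 to 119 CPM in E9.5 controls and 124 to 261 in E9.5 mutants. At E9.5 the proepicardium markers summed to 24.4 to 37.6 CPM in controls and 38.3 to 58.1 in mutants. The paraxial mesoderm markers, with Tcf15 of the gate among them, summed to 1363 to 1415 and 1162 to 1282 at that stage. The cardiomyocyte markers, with Tnnt2 among them, summed to 79.8 to 191 and 159 to 284. Myl7 (0.92), Tnni1 (0.87) and Tpm1 (0.50) were higher there, and of the 7 immediate early genes Ier2 (-0.57) and Jun (-0.56) were lower and Atf3 (0.78) was higher. The part of these in the values was not tested. The difference of the genotype effect between the gates was tested in 16 paired samples. None of the 6 and 0% of all genes passed (789 genes, 5.77%, had an unadjusted p under 0.05), and the largest difference was 0.81 (SE 0.40, adjusted p = 0.883) for Cnn1, higher in the Tnnt2 gate.

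**Figure D3:**
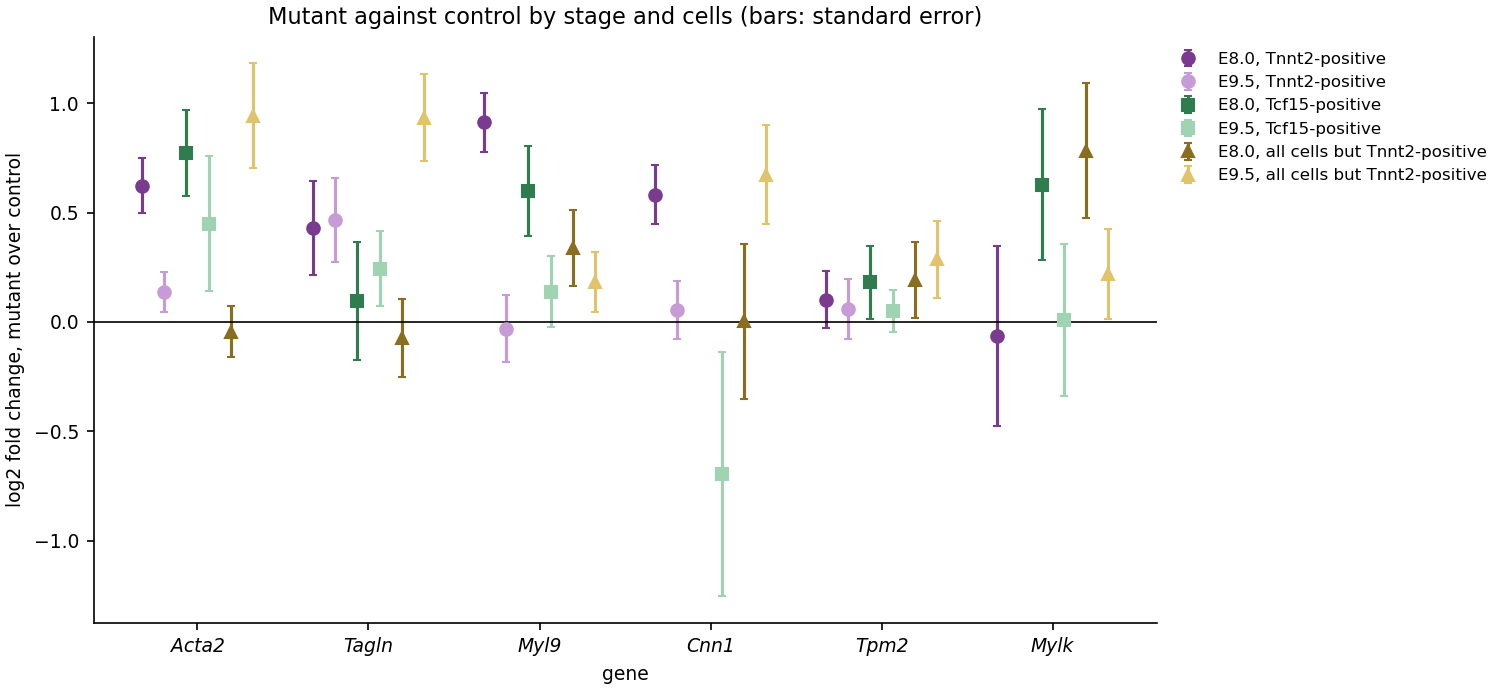
Log2 fold change of mutant over control for each gene at E8.0 and E9.5, in Tnnt2-positive cells (circles), Tcf15-positive cells (squares) and all cells without the Tnnt2-positive ones (triangles). Bars are standard errors of the edgeR fits, and a missing symbol means that the gene did not pass the low-count filter. Acta2 and Tagln outside the Tnnt2 gate stand at 0.94 and 0.93 at E9.5 and close to 0 at E8.0.

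Over all cells and stages, Tagln (0.67, SE 0.15, edgeR, adjusted p = 0.00877) and Cnn1 (0.70, SE 0.21, adjusted p = 0.0360) were higher in mutants, among 10.2% of all genes. Acta2 (0.67, SE 0.23, adjusted p = 0.0734), Myl9 (0.53, SE 0.19, adjusted p = 0.0776), Mylk (0.37, SE 0.14, adjusted p = 0.104) and Tpm2 (0.23, SE 0.14, adjusted p = 0.336) did not pass. The median was 0.60 for the 6 genes and 0.02 for all. The Tagln call was kept in all 21 fits without 1 sample, at 0.57 or more. The Cnn1 call was kept in 11 and lost without Bar24, Bar26, Bar25, Bar28, Bar3, Bar1, Bar23, Bar9, Bar19 or Bar8, with values from 0.47 to 0.80. With the Tnnt2-positive cells left out, Tagln was 0.43 (adjusted p = 0.209), none of the 6 passed, and 8.94% of all genes did. Within runs 1, 2 and 3 alone no gene of the 6 was called, where 0.0114%, 0.208% and 0.482% of all genes were.

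At E8.0 the difference of Acta2 over all cells lay in the Tnnt2 gate. It was 248, 381 and 423 CPM in the controls Bar24, Bar26 and Bar29, and 557, 611 and 617 in the mutants Bar25, Bar27 and Bar28. Of this level, Tnnt2-positive cells gave 291 ± 88.9 CPM (SD, n = 3) in controls and 536 ± 37.4 (n = 3) in mutants, and all other cells 59.4 ± 7.82 and 58.8 ± 4.70. For Mylk it lay outside the gate, where the other cells gave 1.76 ± 0.63 and 3.05 ± 0.61 CPM and the gate 0.85 ± 0.33 and 0.94 ± 0.32. Myl9 was higher in both parts, with 45.2 ± 11.4 and 103 ± 7.91 CPM from the gate and 14.0 ± 3.06 and 18.3 ± 0.75 from the other cells. Acta2, Myl9, Cnn1 and Mylk were higher in every mutant than in every control, as were 12.5% of all genes. No gene of the 6 passed (edgeR, 0.0244% of all genes did), with log2 differences of 0.95 for Myl9 and 0.69 for Acta2 (adjusted p = 0.496 for both) and 4 of 6 at an unadjusted p under 0.05, as were 9.84% of all genes. DESeq2 called Myl9 and Acta2, with 0.392% of all genes. Without the Tnnt2-positive cells Acta2 was -0.04 (SE 0.11) and Cnn1 0.00 (SE 0.35), with 0 of the 6 and 0.0191% of all genes called.

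At E9.5 the mean levels of Acta2 and Tagln were higher in mutants both in the part from the Tnnt2 gate and in the part from all other cells. Tagln over all cells was 60.1, 41.1, 50.6, 64.1 and 48.7 CPM in the controls Bar22, Bar23, Bar4, Bar7 and Bar9, and 78.0, 69.3, 105, 46.3, 128 and 88.5 in the mutants Bar19, Bar20, Bar21, Bar5, Bar8 and Bar10. Of the mutants, 5 of 6 lay above every control, and the exception was Bar5, a sample of 57 cells. Cells outside the gate gave 18.9 ± 7.38 CPM of Tagln (SD, n = 5) in controls and 38.5 ± 10.2 (n = 6) in mutants, and 88.2 ± 26.6 and 178 ± 66.8 CPM of Acta2. The sample Bar6, with 6 cells, entered the fits and is not among these values. The gate itself gave 460 ± 276 and 561 ± 399 CPM of Acta2, a difference within the spread, and 34.0 ± 13.1 and 47.3 ± 24.1 CPM of Tagln. In the fit without Tnnt2-positive cells, Acta2 (0.94, SE 0.24, edgeR, adjusted p = 0.0236) and Tagln (0.93, SE 0.20, adjusted p = 0.00968) were higher in mutants, among 9.55% of all genes. Over all E9.5 cells the 4 proepicardium markers, which include the Wt1 of a class high in Acta2 and Tagln, summed to 26.0 to 54.6 CPM in controls and 52.3 to 104 in mutants, and the immediate early gene Atf3 was higher in mutants by 1.13. Median depth per sample was 9759.5 to 21308.5 UMIs in the mutants and 12386 to 24431 in the controls. The gate is a fixed count of Tnnt2 UMIs, and over all stages 3288 cells had 1 to 4 of them. The male share of cells also differed between the E9.5 samples. The part of these in the values was not tested.

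With the gate included, no gene of the 6 passed at E9.5 and 10.3% of all genes did. Tagln was 0.68 (SE 0.21, adjusted p = 0.0510, edgeR), and it was called without any of Bar4, Bar6, Bar7, Bar20, Bar5 or Bar10, with values from 0.55 to 0.80. Acta2 was 0.37 (SE 0.32, adjusted p = 0.524) and Myl9 0.04 (SE 0.22, adjusted p = 0.953). Of the 6, 1 had an unadjusted p under 0.05, no more than the 26.3% of all genes, and DESeq2 called Tagln, with 17.9% of all genes. The difference of the genotype effect between the stages gave 0 calls among the 6 and 0.464% among all genes over all cells, with Myl9 at -0.90 (SE 0.34, adjusted p = 0.295). Outside the gate it was 0.96 (SE 0.35, adjusted p = 0.270) for Acta2 and 1.00 (SE 0.32, adjusted p = 0.207) for Tagln, which did not pass either.

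At E8.5 the lone mutant Bar1 had 1069 CPM of Acta2 against 249 in Bar2 and 317 in Bar3, 300 of Myl9 against 118 and 95.4, and 57.1 of Cnn1 against 3.44 and 13.7. Its share of Tnnt2-positive cells was 17.9%, against 8.82% and 6.02%. The control Bar2 had only 34 cells, 3 of them Tnnt2-positive with 3 UMIs of Cnn1 together, so its values rest on few counts. The fit assumes that the lone sample varies like the other groups. It gave 2.07 (SE 0.45, edgeR, adjusted p = 0.0560) for Cnn1 and 1.83 (SE 0.55, adjusted p = 0.237) for Acta2, with none of the 6 and 0.178% of all genes called, and 4 of the 6 at an unadjusted p under 0.05, as were 7.16% of all genes. Cnn1 was called without Bar29, Bar7, Bar9 or Bar10, and its values over the fits without 1 sample ran from 1.86 to 4.10. DESeq2 called Cnn1 and Myl9, with 1.27% of all genes.

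**Figure D4:**
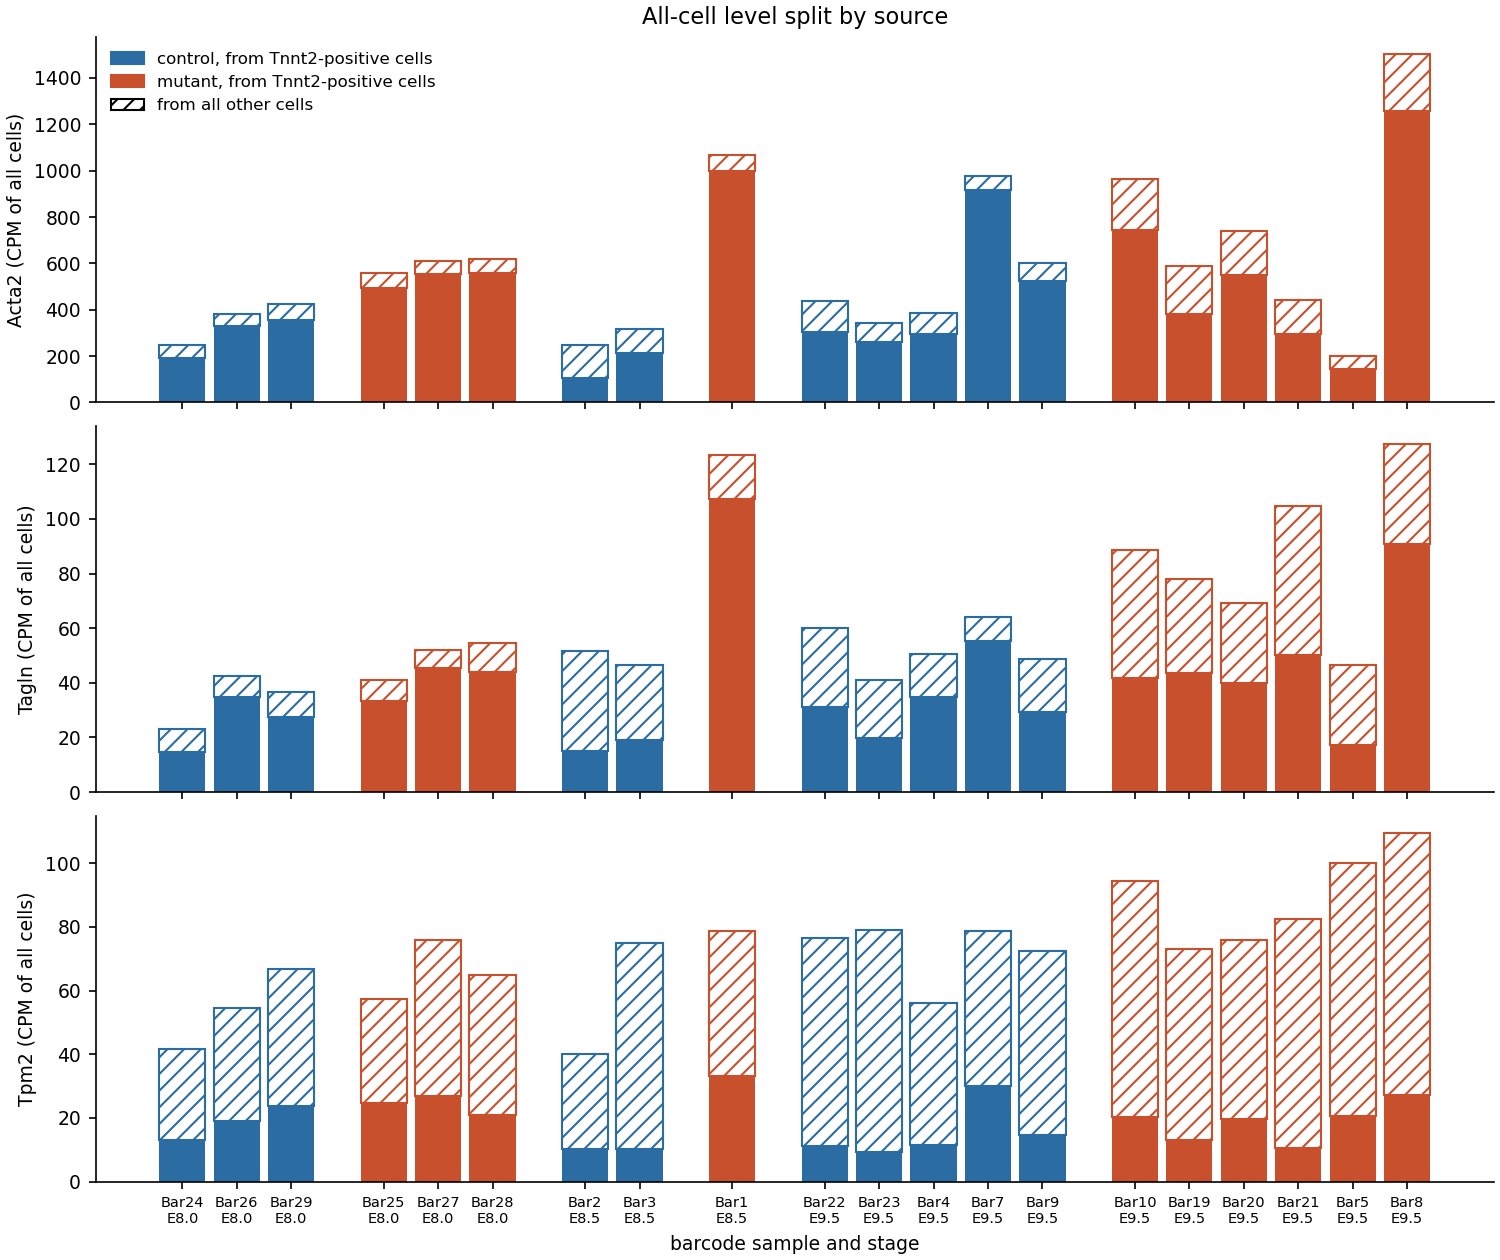
All-cell level of Acta2, Tagln and Tpm2 in each barcode sample, in CPM of all cells, split into UMIs from Tnnt2-positive cells (filled) and from all other cells (hatched), control in blue and mutant in orange. The hatched part of Acta2 and Tagln is larger in most E9.5 mutants than in E9.5 controls, and most of the Tpm2 level comes from cells outside the gate in every sample.

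At E9.5 the 6 genes were also compared in 4 other cell classes, a comparison added after the data were seen. In Wt1-positive cells Tagln was 54.0 ± 29.3 CPM (SD, n = 3) in controls and 155 ± 33.4 (n = 3) in mutants, and Acta2 188 ± 72.8 and 436 ± 222. An exact two-sided permutation test on log2(CPM + 1) of the samples, used for all 4 classes, gave p = 0.1 for both, the smallest value that 3 against 3 allows. In Foxf1-positive cells Acta2 was 298 ± 135 CPM (n = 4) in controls and 578 ± 150 (n = 4) in mutants (exact permutation p = 0.0571). Mylk went the other way in that class, with 3.43 ± 1.00 and 1.01 ± 0.792 CPM (exact permutation p = 0.0286, the smallest that 4 against 4 allows). In Ebf1-positive cells Acta2 was 86.0 ± 23.4 CPM (n = 5) and 155 ± 69.1 (n = 4; exact permutation p = 0.111) and Tagln 36.1 ± 11.2 and 55.1 ± 23.0 (exact permutation p = 0.206). In Isl1-positive cells Acta2 was 149 ± 44.6 CPM (n = 4) and 245 ± 190 (n = 3), with the lowest mutant at 26.0 CPM, below every control. On the log2 scale of the test the difference was 0.05 (exact permutation p = 1), unlike that of the CPM means. Myl9 and Tpm2 differed little, with log2 differences between -0.19 and 0.16 in the 4 classes, and Cnn1 ran from -0.31 (Isl1) to 1.53 (Foxf1). After adjustment over the 24 tests, 6 genes in 4 classes, every p was 0.343 or more, so none of these differences passed. The share of cells with a Tagln UMI after thinning was 10.3% ± 1.67 (n = 5) in controls and 17.6% ± 5.37 (n = 6) in mutants over all E9.5 cells (exact permutation p = 0.0173, adjusted over 18 tests 0.129), and 17.8% ± 3.43 and 26.0% ± 6.23 without thinning.

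In the fit over all cells, where 10.2% of all genes passed, other genes of the pathway were called at shares above and below that value. Of the 16 other smooth muscle genes 4 were higher in mutants over all stages and none lower, namely Kcnmb1 (0.70), Itga1 (0.56), Csrp1 (0.32) and Flna (0.22), with a median of 0.29 (edgeR, adjusted p under 0.05). The regulator Tead1 was higher (0.31), 1 of 15, as were Cnn2, Myh10 and Myh9, 3 of the 15 non-muscle counterparts. Of the cardiac counterparts 7 of 12 were higher, with a median of 0.81 above that of the 6 genes. Atf3, 1 of the 7 immediate early genes, was higher by 0.89. At E9.5, 2 of the 15 regulators passed, Tgfb2 (0.59) and Tead1 (0.46), a share near the 10.3% of all genes, and 0 of the 16 other smooth muscle genes did (edgeR; 5 had an unadjusted p under 0.05, against 26.3% of all genes).

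Across barcode samples, over all cells and in the Tnnt2 gate, Mylk was less correlated with the other 5 genes than these were with each other. Mylk had 1127 UMIs in all cells together, and counts this low limit its correlations. The correlation of log2(CPM + 1) over the 21 samples with at least 20 cells was 0.93 between Acta2 and Myl9 and between Acta2 and Cnn1, but 0.46 between Acta2 and Mylk. The first of these was 0.87 without the E7.5 sample. Within the Tnnt2 gate (18 samples) it was 0.93 between Myl9 and Cnn1 and 0.91 between Acta2 and Myl9, while Mylk had values from -0.27 to -0.03 with the other 5. These samples share stages, runs and shares of heart cells, so the values are descriptions. The 3 genes most like each member, among genes with a mean of at least 20 CPM, were mostly heart muscle genes for Acta2 (Sh3bgr 0.98, Myl7 0.97 and Myl4 0.97) and Cnn1 (Ttn 0.97, Fbxl22 0.96 and Armh4 0.96). For Myl9 they were Acta2 (0.93), Tpm1 (0.92) and Dpysl3 (0.91), for Tagln the metabolic enzymes Eno3 (0.97), Idh2 (0.96) and Decr1 (0.95), for Tpm2 P3h4 (0.95), Wwtr1 (0.95) and Lbh (0.94), and for Mylk Dleu2, Ank2 and Utrn, with weaker values of 0.82, 0.82 and 0.81. Without the E7.5 sample the values of these pairs ran from 0.75 (Tagln and Decr1) to 0.96 (Acta2 and Myl4).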

How the data were processed

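RNA was counted in single cells of 3 pooled libraries. The deposited UMI counts are raw, with no normalization. Per the labels, the authors used kallisto and bustools for mapping (10x v3 chemistry) and code of their own to assign lipid barcodes. The submitters' processing notes name the build GRCm38, kallisto, bustools and Cell Ranger, with no role or order. Annotation, strandedness of counting and cell filtering are not given in the sources used here. The authors' per-cell table gave run, barcode, stage and condition, where wildtype was read as control (Wls fl/+) and knockout as mutant (Wls fl/fl).

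Counts were summed per barcode sample and gate, and CPM is a gene's UMIs scaled to 1000000 UMIs of the same cells. The main test was the quasi-likelihood F test of edgeR 4.0.16 under R 4.3.3 (TMM factors, filterByExpr, two-sided, Benjamini-Hochberg over all genes tested, threshold 0.05). The genotype fits had blocks for stage and terms for run, the stage fits genotype as a covariate, and the fit between gates the barcode sample as a block. SE is the log2 fold change divided by the square root of F. Alternatives were RLE factors, DESeq2 1.42.0, no low-count filter, other gate thresholds, thinning to 5000 UMIs, samples left out 1 by 1, single runs, a run term, the male share of cells as a covariate, and cells without the globin-high (globin at least 5% of UMIs) or Tnnt2-positive. A cell was called male where it had a UMI of a Y-linked gene and none of Xist. Doublets were not called. The E8.0 and stage-difference fits within gates and the fits without Tnnt2-positive cells were added after the data were seen.

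The genes, lists and gates were chosen with earlier results of these data known. Besides the 6 genes, the text names list genes that passed (at most 4 per list and direction, largest change first) and the 3 genes most correlated with each. Myh11 is named as a check of the labels.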

Additional observations from a re-analysis of the deposited data

Results flagged for a closer look

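In Tnnt2-positive cells of the E9.5 controls, Tpm2 was 249 CPM in the sample Bar7, far from the other 4 of its group, which lay between 170 and 190 CPM. The group was 1 of 36 in which a sample far from the others was looked for, and chance marks about 1 in 20 such groups.

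The control sample labelled E7.5, which is in no group compared and entered the fits over all stages of all cells as a stage of its own, held 10 UMIs of Acta2, 5 of Myl9 and 7 of Tpm2 in 28 cells, above the 3 counts that a count of 0 allows. Tagln and Cnn1 had 0 UMIs there.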

How the results depend on the processing

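The values here are numbers of the 6 genes called, each with the share of all genes called in the same fit. For the genotype effect over all cells, 2 were called (10.2%), against 4 with RLE factors (11.6%), 4 with DESeq2 (20%), 4 without the low-count filter (6.26%), 4 in thinned cells (8.64%), 1 without globin-high cells (10%), 1 with the male share as covariate (3.2%), 0 without Tnnt2-positive cells (8.94%) and 0 in each of runs 1, 2 and 3 alone (0.0114%, 0.208% and 0.482%). At E8.0, 0 (0.0244%) became 2 with DESeq2 (0.392%), 2 without the filter (0.111%) and 1 in thinned cells (0.0432%). At E8.5, 0 (0.178%) became 1 with RLE (0.312%), 2 with DESeq2 (1.27%), 4 without the filter (0.709%) and 1 in thinned cells (0.337%). At E9.5, 0 (10.3%) became 1 with RLE (11.8%), DESeq2 (17.9%), no filter (7.62%), no globin-high cells (15.5%), thinned cells (11.7%) or 1 fit over all stages (10.6%), and 2 without Tnnt2-positive cells (9.55%). The stage difference of the effect went from 0 (0.464%) to 1 without the filter (1.92%). For E9.5 against E8.0 over all cells, 2 (19.5%) became 5 without Tnnt2-positive cells (20.7%), 1 with a run term (18.1%) and 4 in run 1 alone (29.7%), where Cnn1 turned from 0.09 to -0.63. For E8.5 against E8.0, 1 (15.4%) became 2 without Tnnt2-positive cells (16.3%) and 0 with a run term (0.528%).

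In the Tnnt2 gate the genotype effect went from 1 (2.37%) to 2 with DESeq2 (9.47%), 4 without the filter (2.59%), 0 with the male share (0.159%), 2 at a threshold of 1 UMI (8.23%) and 0 at 20 (1.11%). At E8.0 it went from 0 (0.0459%) to 3 with DESeq2 (1.11%), 4 without the filter (1.03%) and 1 without cells past both thresholds (0.0742%), and its stage difference from 0 (0.21%) to 1 with DESeq2 (1.91%) and 2 without the filter (1%). In the Tcf15 gate the genotype effect, over all stages (10.4%) and at E8.0 (0.0416%), went from 0 to 1 without the filter (6.13% and 0.787%), and the stage effect from 3 (14.7%) to 1 with a Tcf15 threshold of 2 UMIs (12.2%). The cause was not tested.

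Leaving out 1 sample gave 1 to 4 calls for genotype over all cells (6.06% to 11.9% of all genes), 0 to 1 at E8.5 (0.00482% to 0.317%), 0 to 1 at E9.5 (3.35% to 13.1%), 1 to 2 for E9.5 against E8.0 (14% to 21.7%) and 0 to 2 for E8.5 against E8.0 (2.18% to 19.7%). It gave 0 to 2 for genotype in the Tnnt2 gate (0.464% to 3.41%), 0 to 2 there at E8.0 (0.0354% to 0.195%), 0 to 1 for genotype at E9.5 in the Tcf15 gate (4.7% to 17.9%), 2 to 3 for stage in the Tcf15 gate (11.2% to 18.8%), and always 5 for stage in the Tnnt2 gate (21.6% to 26.5%) and 6 between the gates (59.4% to 61.5%). Acta2 over all cells was called without Bar4, Bar6, Bar7 or Bar5 (0.47 to 0.85 over all such fits) and Myl9 without Bar4, Bar7, Bar5 or Bar10 (0.36 to 0.65). In the Tnnt2 gate Tagln was called without Bar26, Bar25 or Bar20 (0.41 to 0.58), Myl9 without Bar10 (0.34 to 0.53) and Cnn1 without Bar7 (0.26 to 0.38). For stage over all cells Myl9 was called without Bar5 (0.61 to 0.89), and for E8.5 against E8.0 without Bar7 (0.59 to 1.29). Few samples per stage, and few UMIs of Mylk and of Cnn1 outside the Tnnt2 gate, limit what could be detected. Between control and mutant samples, no paired analysis was possible because no label or replicate number ties one to the other. Run, which held both genotypes at E9.5, was a term in the genotype fits, and the gates of a sample were compared as pairs.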

Other observations

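Markers of other cell classes also differed between genotypes at E9.5. Of the 4 proepicardium markers 2 were higher in mutants over all cells, with a median log2 difference of 0.86 over the list, and 3 of the 8 paraxial mesoderm markers were lower, with a median of -0.48 (edgeR, adjusted p under 0.05, which 10.3% of all genes passed in that fit). Their part in the values of the 6 genes was not tested.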
